A study of Rattus norvegicus with 484 samples.

Results

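Soleus, a postural muscle made mostly of slow oxidative fibres, was taken from rats given retinoic acid and set against soleus of vehicle rats of the same day. The comparison held 52 arrays of 132 from soleus and of 484 in the whole series: 20 arrays of rats that received retinoic acid at 25 mkd (the dose unit as the labels give it), 4 on each of days 2 to 6, and 32 arrays of vehicle rats. The vehicle arrays numbered 6, 10, 9, 3 and 4 on days 2, 3, 4, 5 and 6. Members were chosen by their titles, which name the muscle, compound, dose, day and rat. 3 of 35 vehicle arrays were left out. Vehicle rats 1022 and 1061 had ratios spread 12.3 and 3.19 times as widely as the median soleus array, and vehicle rat 1034 carried liver transcripts, with a median ratio of 2.71 log2 units over 16 hepatocyte markers. The labels used here do not give strain, sex, age, the vehicle or the route. Fenofibrate (400 mkd), bezafibrate (250 mkd), Wy-14643 (100 mkd) and rosiglitazone (100 mkd) were given to other rats of the study, whose 77 soleus arrays are used below.

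Each array compared cRNA of 1 rat (Cy5) with a pool of 10 to 14 vehicle rats of the same muscle and day (Cy3). A value is therefore a ratio to that pool on the log2 scale, and the absolute level of a gene, or the muscle's own markers, cannot be read from it. All differences below are retinoic acid minus vehicle within a day, with the days weighted equally, given as log2 fold changes ± SE. Genes passed at an adjusted p under 0.05 (limma, Benjamini-Hochberg over all features tested). The day 4 pool itself held liver transcripts: the hepatocyte median lay between -2.52 and -2.33 on the 4 retinoic acid arrays of that day and between -2.38 and -1.73 on its 9 vehicle arrays. It lay between -0.23 and 0.48 on the retinoic acid arrays and between -0.21 and 0.79 on the vehicle arrays of the other days. The pool drops out of a comparison within a day. No hepatocyte marker of 16 passed between retinoic acid and vehicle (median -0.08). In 4 of the within-day pairs of these arrays the ratios were opposed (correlation over all features below -0.3, lowest -0.37), 2 of them between a retinoic acid and a vehicle rat and 2 between vehicle rats. The direction of the ratio, rat over pool, was taken from the dyes named in the labels.

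Retinoic acid is the active form of vitamin A. It binds the retinoic acid receptors (RARs), which sit on DNA as pairs with retinoid X receptors (RXRs) and turn on transcription when the ligand is present. Among the best known targets are the genes that limit the signal itself, namely cytochromes of the CYP26 family, which oxidise retinoic acid, and LRAT, which stores its precursor retinol as esters. Cells thereby hold retinoic acid within narrow bounds.

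Retinoic acid changed 820 of 18367 features, which is 4.46% of those tested. Of these 414 (2.25%) were higher and 406 (2.21%) were lower. Among features with a gene name 5.33% passed. The gene lists below were chosen with earlier results of these data known, so their shares of calls are no independent support. Most changes were small, with a median size of 0.26 log2 units among the 820. Only 8 of them changed by 1 log2 unit or more, 7 higher and 1 lower. The count was 524 with the 3 excluded vehicle arrays put back, 434 with vehicle rat 1022 alone put back, and 1239, 507 or 321 without day 2, 3 or 4.

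The largest rises were in the enzymes that break down retinoic acid. Cyp26b1 ratios were 2.19, 4.07 and 4.69 (lowest, median and highest of 20 retinoic acid arrays), against -0.36, -0.05 and 0.49 in 32 vehicle arrays. Every retinoic acid rat was above every vehicle rat of its own day and of all other days. The difference was 3.99 ± 0.08, a 15.9-fold rise (adjusted p = 3.16e-67, limma), and both probes of the gene gave it (3.74 and 4.24). Cyp26a1, the other CYP26 enzyme on the array, had ratios of 0.92, 2.35 and 4.37 with retinoic acid, against -0.85, -0.05 and 1.36 with vehicle. The groups were apart on 4 of 5 days and overlapped on day 5, where 1 of 3 vehicle rats reached 1.36. Cyp26a1 rose by 2.40 ± 0.15, or 5.29-fold (adjusted p = 9.16e-27). Cyp2s1, a cytochrome reported to act on retinoic acid, rose by 0.20 ± 0.05. Cyp2c22, a liver cytochrome of the same list, gave 0.04 ± 0.09 and did not pass.

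Lrat, which esterifies retinol for storage, had ratios of 0.33, 1.64 and 2.28 with retinoic acid, against -0.44, 0.07 and 0.56 with vehicle. It was higher in 20 of 20 retinoic acid rats than the vehicle mean of their day, and the groups overlapped on 1 day of 5. The rise was 1.39 ± 0.10, or 2.62-fold (adjusted p = 2.82e-23). The other genes tested of storage and return did not pass: Dgat1, which can also esterify retinol, gave -0.04 ± 0.06, and Rpe65, which in the eye turns the esters back into retinol, gave 0.87 ± 0.59.

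**Figure D1:**
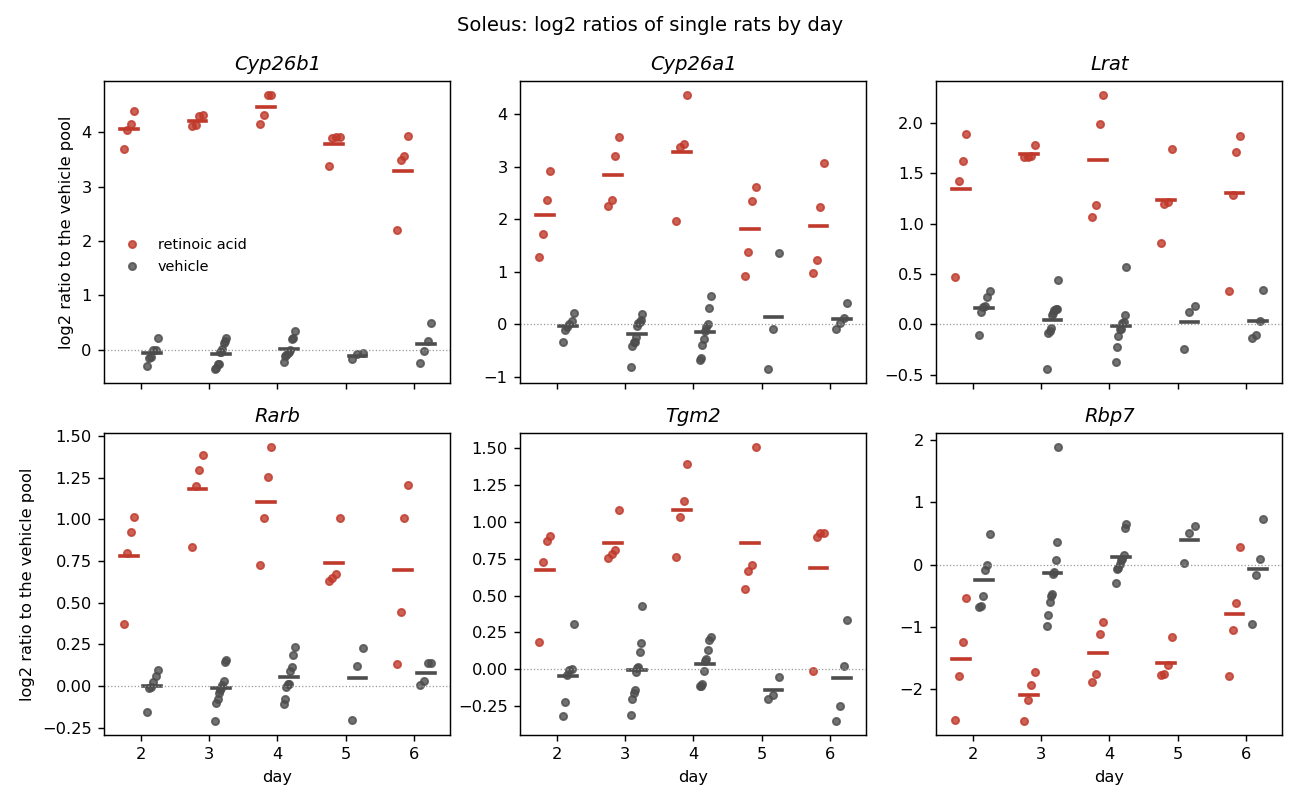
Log2 ratios of single rats to the vehicle pool of their day (vertical axis) on days 2 to 6 (horizontal axis) for 6 genes, with retinoic acid rats (red) left of vehicle rats (grey) and a bar at each day's mean. Cyp26b1 lies between 2.19 and 4.69 in every retinoic acid rat and never above 0.49 in vehicle rats, while Rbp7 lies lower with retinoic acid on each day.

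Among the receptors, Rarb had ratios of 0.14, 0.97 and 1.44 with retinoic acid, against -0.21, 0.01 and 0.24 with vehicle. The groups overlapped on day 6 only, where 1 retinoic acid rat was at 0.14 and the highest vehicle rat also at 0.14. Rarb rose by 0.87 ± 0.05, or 1.82-fold (adjusted p = 1.45e-27), with its 2 probes at 0.33 and 1.41. Rarg rose by 0.40 ± 0.07 (adjusted p = 4.03e-05) and the receptor coactivator Ncoa3 by 0.13 ± 0.04. The remaining receptors did not pass: Rara gave 0.13 ± 0.07, Rxra 0.04 ± 0.03, Rxrb 0.02 ± 0.03 and Rxrg 0.19 ± 0.09. Thus 3 of 11 receptors and partners were higher and none was lower, beside 2.25% and 2.21% of all features.

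The carriers moved both ways. Rbp7, a cellular retinol-binding protein found in endothelium and fat, had ratios of -2.52, -1.74 and 0.29 with retinoic acid, against -0.99, -0.03 and 1.90 with vehicle. It was lower in 19 of 20 retinoic acid rats than the vehicle mean of their day, and the groups did not overlap on 3 of 5 days. The fall was -1.50 ± 0.15, to 0.355 of the vehicle level (adjusted p = 1.81e-13), and it was the only fall past 1 log2 unit. Crabp2, which brings retinoic acid to its receptors, rose by 0.38 ± 0.09, and Stra6, which takes up retinol from its blood carrier, by 0.33 ± 0.07. Without day 4 Crabp2 gave 0.28 (adjusted p = 0.222), without day 2 it gave 0.33 (adjusted p = 0.0515), and with vehicle rat 1022 put back Stra6 gave 0.27 (adjusted p = 0.214). Rbp4, the blood carrier of retinol, gave -0.51 ± 0.26 and did not pass.

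Of the enzymes that make retinal and retinoic acid, 1 of 16 changed. This share of 6.25% is near the 4.46% of all features and 5.33% of named genes that passed. Aldh1a2, a retinaldehyde dehydrogenase that makes retinoic acid, had ratios of -0.41, -0.23 and 0.12 with retinoic acid, against -0.20, 0.08 and 0.34 with vehicle, and fell by 0.24 ± 0.04 on the log2 scale (adjusted p = 3.41e-05). It was lower in 19 of 20 rats, although the ranges overlapped. Aldh1a1 (-0.01 ± 0.11), Aldh1a3 (-0.04 ± 0.06) and Rdh10 (0.00 ± 0.04), which oxidises retinol, did not pass. Over all 42 retinoid genes tested, 9 were higher and 2 lower (median 0.01), beside 2.25% and 2.21% of all features (median 0.00). Of 24 genes listed as retinoic acid targets in other tissues, 8 were higher and none lower (median 0.04). Cyp26b1, Cyp26a1, Lrat, Rarb, Crabp2 and Stra6 are calls of the retinoid list too, so the counts of these lists are not independent. The remaining calls were Tgm2 and Rai14. Tgm2, a transglutaminase that crosslinks proteins, had ratios of -0.01, 0.84 and 1.51 with retinoic acid, against -0.35, -0.02 and 0.43 with vehicle. Tgm2 rose by 0.88 ± 0.07 in 20 of 20 rats (adjusted p = 1.81e-18). Rai14 rose by 0.20 ± 0.05. Egr1 (0.54 ± 0.24), Hoxa5 (-0.01 ± 0.07), Icam1 (0.04 ± 0.04) and Ucp1 (-0.05 ± 0.03) did not pass.

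A direct repeat of the receptor half-site with 5 bases between its copies is the classic element bound by RAR and RXR. RefSeq promoter windows of the rat assembly GRCr8, from 250 bases before to 50 after a gene's start, were searched on both strands for the half-site AGGTCA, its variant AGTTCA, the variant GGGTCA or the variant GGTTCA, then 5 bases of any kind, then any of these 4 again. The motif stood in 128 of 33469 windows, or 0.382%. Of the 10 passing retinoid genes with a window in the table, 2 held it, Cyp26a1 and Rarb, and they are shown because both rose in nearly every rat. In Cyp26a1 it reads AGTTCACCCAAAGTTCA on the opposite strand at -92 to -76 from the start. In Rarb it reads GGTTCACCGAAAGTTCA on the gene's strand at 25 to 41 after the annotated start, and only that site is shown. Capitals mark the match, and both lines run along the gene's strand (+), at chr1:244883689-244883788 and chr15:11336410-11336439.
Cyp26a1: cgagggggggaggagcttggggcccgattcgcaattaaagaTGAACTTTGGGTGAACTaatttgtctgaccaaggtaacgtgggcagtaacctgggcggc
Rarb: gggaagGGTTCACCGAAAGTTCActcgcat
The match describes letters and is not evidence of binding. The windows of the 8 other genes, Cyp26b1, Lrat and Rbp7 among them, held no match, which says nothing about elements outside these bases.

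Outside the retinoid genes, the largest rises included a chemokine, a matrix protease and a microtubule linker. Ccl2, a chemokine that draws monocytes, had ratios of -1.75, 0.73 and 3.36 with retinoic acid, against -1.61, -0.54 and 1.99 with vehicle. The groups overlapped on every day, and the rise of 1.20 ± 0.26 (adjusted p = 0.00129) was seen in 17 of 20 rats. Without day 4 Ccl2 gave 1.04 (adjusted p = 0.0775). Mmp9, a gelatinase, had ratios of -0.76, 0.96 and 2.82 with retinoic acid, against -1.25, 0.00 and 2.67 with vehicle, and rose by 1.06 ± 0.16 in 19 of 20 rats (adjusted p = 8.88e-07), with no overlap on 3 of 5 days. Clip2, a linker of microtubules, rose by 0.83 ± 0.08, Ada, which deaminates adenosine, by 0.82 ± 0.09, and Neurl3, a ubiquitin ligase, by 0.82 ± 0.15. Of these, Ada was above the vehicle mean of the day in 20 of 20 rats. Of 39 collagens and matrix genes, Mmp9 and Loxl2 (0.35 ± 0.08), a collagen crosslinking oxidase, were higher and none was lower (median -0.02). These calls made up 5.13% of the list, near the 4.46% of all features and 5.33% of named genes that passed.

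The largest falls after Rbp7 were in genes of varied function. Sfrp2, a secreted binder of Wnt proteins, had ratios of -3.01, -0.57 and 0.10 with retinoic acid, against -1.39, 0.07 and 1.29 with vehicle, and fell by 0.77 ± 0.23 on the log2 scale in 16 of 20 rats. Dnase1l3, a secreted DNase, gave -0.74 ± 0.16 in 19 of 20 rats, and Pf4, the chemokine platelet factor 4, gave -0.58 ± 0.11 in 20 of 20. Adamtsl2, a matrix protein (-0.58 ± 0.10), and Sult1a1, a phenol sulphotransferase (-0.59 ± 0.11, with 6 probes between -0.67 and -0.50), also fell. Dnase1l3, Pf4, Adamtsl2 and Sult1a1 passed under every alternative tried. Arrdc2 (-0.67 ± 0.21), Rnf112 (-0.65 ± 0.14), Fcrl2 (-0.65 ± 0.19), the kinase Map2k6 (-0.58 ± 0.14) and Sfrp2 passed with all days, and without day 4 they gave -0.63, -0.57, -0.49, -0.55 and -0.74 with adjusted p of 0.235, 0.0568, 0.386, 0.0675 and 0.197. Sfrp2, Fcrl2 and Arrdc2 also lost the call without day 2, at -0.66, -0.63 and -0.65, Sfrp2 and Fcrl2 without day 3 (-0.87 and -0.71), Arrdc2 without day 5 (-0.59), and Sfrp2 and Arrdc2 without day 6 (-0.82 and -0.70). Leaving out a single rat ended the call of Sfrp2 for 12 of the 52 rats, that of Fcrl2 for 6 and that of Arrdc2 for 16, with adjusted p up to 0.0833, 0.0882 and 0.0990 and values of -0.75 to -0.66, -0.61 to -0.53 and -0.66 to -0.58.

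**Figure D2:**
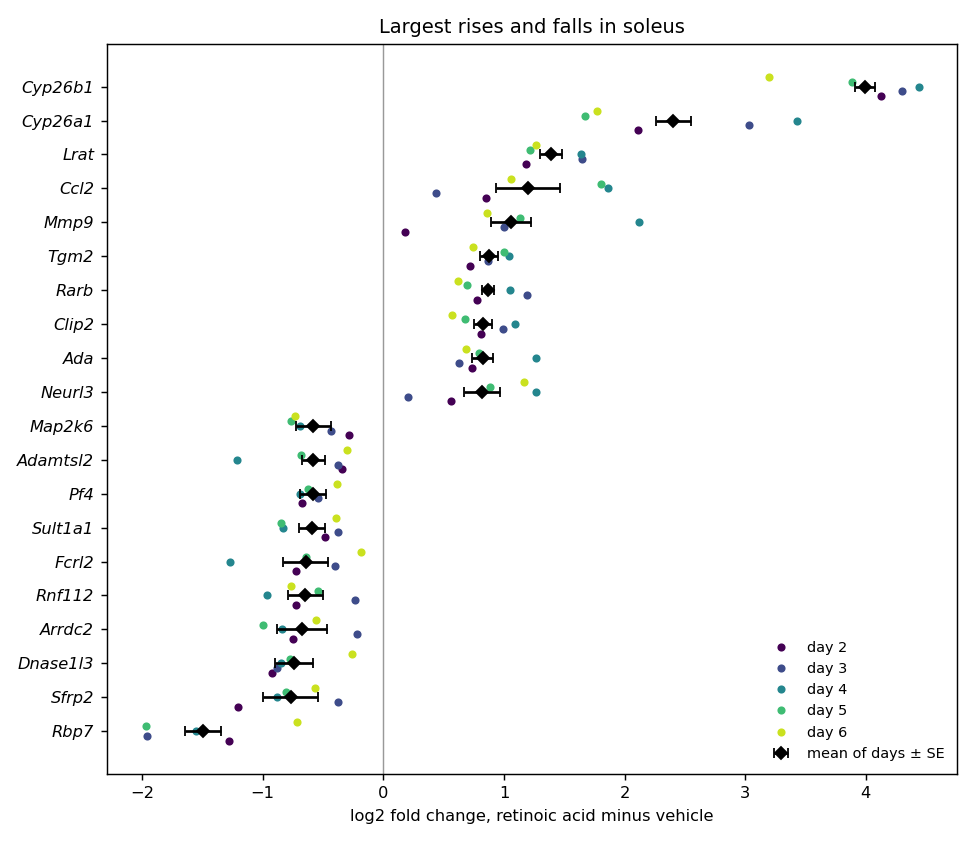
Log2 fold changes, retinoic acid minus vehicle (horizontal axis), of the 10 largest rises and 10 largest falls, taken from passing genes whose sign was the same on all 5 days. Coloured points are single days and black diamonds the mean of the days ± SE; Cyp26b1 stands at 3.99 and Rbp7 at -1.50.

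Genes tied to nerve contact and repair rose in part. Ngfr, the low-affinity neurotrophin receptor found on Schwann cells, had ratios of -0.07, 0.89 and 1.51 with retinoic acid, against -0.34, 0.04 and 0.59 with vehicle, and rose by 0.79 ± 0.07 (adjusted p = 7.95e-16). Ncam1, an adhesion molecule that spreads over denervated fibres, had ratios of 0.13, 0.67 and 1.38 with retinoic acid, against -0.51, 0.07 and 1.03 with vehicle, and rose by 0.72 ± 0.09 in 20 of 20 rats. Runx1, a transcription factor known to be induced in denervated muscle, rose by 0.67 ± 0.15, and Gap43, a growth cone protein, fell by 0.36 ± 0.10. Without day 4 Runx1 gave 0.53 (adjusted p = 0.131) and Gap43 gave -0.30 (adjusted p = 0.197); without day 5 Gap43 gave -0.31 (adjusted p = 0.0613), and without vehicle rat 1056 it gave -0.29 (adjusted p = 0.0762). Of 18 regeneration and denervation genes 2 were higher and 1 lower (median 0.06), and of 9 nerve and Schwann cell markers 2 were higher, Ngfr and Gfap (0.36 ± 0.09; 0.29 without day 4, adjusted p = 0.177). Calls made up 16.7% of the regeneration and denervation list and 22.2% of the nerve list (median 0.01). Both lists are small and were chosen with earlier results of these data known. Of all features 4.46% passed, and of named genes 5.33%. The median level of the 9 nerve and Schwann cell markers was taken as their median ratio minus the vehicle mean of the day. It ran between -0.18 and 0.73 with retinoic acid and between -0.23 and 0.23 with vehicle. A change in the number of cells of a type and in the RNA of each cell cannot be told apart in whole muscle, here and in the lists that follow.

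Fuel metabolism and contractile genes gave few calls. None of 15 genes of mitochondrial beta-oxidation passed (median -0.03), and likewise none of 16 of oxidative phosphorylation (-0.05), 14 of the tricarboxylic acid cycle (-0.04), 19 of glycolysis and glycogen (-0.09), 4 slow-fibre (0.04) and 10 fast-fibre contractile genes (-0.25). All 10 fast-fibre values were below 0, for example Actn3 (-0.61 ± 0.46), Myh1 (-0.26 ± 0.51) and Myh4 (-0.07 ± 0.67). Against the mean of the other 4 compounds the fast-fibre median was 0.21, and again none passed. The median ratio of the fast-fibre genes, minus the vehicle mean of the day, ran between -1.09 and 0.69 in single retinoic acid rats and between -1.20 and 1.00 in vehicle rats. In lipid synthesis 2 of 21 genes were higher, the desaturase Fads1 (0.44 ± 0.09) and the elongase Elovl5 (0.18 ± 0.04), and 2 lower, the desaturase Scd2 (-0.42 ± 0.09) and Dgat2 (-0.41 ± 0.13), the last step of triglyceride synthesis. With the 3 excluded vehicle arrays put back, Scd2 gave -0.31 (adjusted p = 0.169) and Elovl5 0.22 (adjusted p = 0.0654), and without day 4 Dgat2 gave -0.40 (adjusted p = 0.234). Dgat2 also lost the call without day 2, 3 or 6 (-0.38, -0.45 and -0.36) and without any 1 of 22 single rats (adjusted p up to 0.102). Insig1, which holds back sterol synthesis, rose by 0.45 ± 0.08, and Fdft1, squalene synthase, fell by 0.24 ± 0.07 (-0.25 without day 4, adjusted p = 0.119; -0.22, -0.24 and -0.19 without day 2, 3 or 6, and no call without any 1 of 8 single rats, adjusted p up to 0.107). They were 1 higher and 1 lower of 14 cholesterol genes (median -0.01). Calls made up 19.0% of the lipid synthesis list and 14.3% of the cholesterol list, beside 4.46% of all features.

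Stress and turnover lists held few calls, at shares near the 4.46% of all features and 5.33% of named genes that passed: 5.56% of the atrophy, 6.90% of the proteasome, 5% of the heat shock, 4.35% of the antioxidant, 2.5% of the integrated stress response and 5% of the interferon list. Of 18 atrophy genes Fbxo40 alone was higher (0.23 ± 0.06; 0.21 without day 4, adjusted p = 0.111), with Trim63, a muscle ubiquitin ligase, at 0.17 ± 0.11 (list median 0.12). Of 29 proteasome subunits Psmd11 (0.22 ± 0.05) and Psmd2 (0.22 ± 0.06) were higher (median 0.08). Without day 5 these gave 0.17 each (adjusted p = 0.0797 and 0.136). Psmd2 also lost the call without day 4 (0.17) or day 6 (0.20) and without any 1 of 5 single rats (adjusted p up to 0.0949). Hsph1 (0.24 ± 0.07) was the 1 call of 20 heat shock genes and Txnrd1 (0.24 ± 0.06) the 1 of 23 antioxidant genes. Without day 4 they gave 0.23 (adjusted p = 0.109) and 0.21 (adjusted p = 0.164), and without day 6 0.15 (adjusted p = 0.331) and 0.20 (adjusted p = 0.134). Without vehicle rat 1056 Hsph1 gave 0.19 (adjusted p = 0.109), Txnrd1 0.22 (adjusted p = 0.0516) and Fbxo40 0.20 (adjusted p = 0.0501); Fbxo40 gave 0.19 without day 6 (adjusted p = 0.121), and Hsph1 0.25 without day 3 (adjusted p = 0.0679) and 0.21 without retinoic acid rat 1310 or vehicle rat 1070. In the integrated stress response 1 of 40 passed, Phgdh of serine synthesis (-0.48 ± 0.15; -0.46 without day 4, adjusted p = 0.234; -0.47 and -0.35 without day 3 or 5, and no call without any 1 of 25 single rats, adjusted p up to 0.118), while Atf3 (0.77 ± 0.26), Atf4 (0.11 ± 0.06) and Trib3 (0.13 ± 0.12) did not. No endoplasmic reticulum chaperone of 17, clock gene of 15, cell cycle gene of 29 or p53 target of 12 passed (medians 0.05, -0.03, -0.03 and 0.07). Of 17 glucocorticoid targets 3 were lower and none higher (median -0.09): Hsd11b1, which makes active glucocorticoid (-0.38 ± 0.10), the transcription factor Klf9 (-0.32 ± 0.08) and Nr3c1, the receptor itself (-0.24 ± 0.06). These calls were 17.6% of the list, beside the 4.46% of all features that passed. With the excluded arrays put back Nr3c1 gave -0.17 (adjusted p = 0.242) and Hsd11b1 -0.29 (adjusted p = 0.224), and without day 4 Klf9 gave -0.26 (adjusted p = 0.202). Hsd11b1 also gave -0.27 without day 2 (adjusted p = 0.138), -0.37 without day 4 (adjusted p = 0.0844) and -0.29 without vehicle rat 1056 (adjusted p = 0.0762), and Nr3c1 -0.22 without day 3 (adjusted p = 0.0533). Of 20 interferon genes 1 was lower, Oas1a (-0.45 ± 0.14; -0.39 without day 4, adjusted p = 0.335; -0.42 and -0.44 without day 3 or 6, and no call without any 1 of 28 single rats, adjusted p up to 0.112), with a list median of 0.10.

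Some genes of vessels rose and others fell. Edn1, endothelin, had ratios of -0.07, 0.61 and 1.61 with retinoic acid, against -1.13, -0.05 and 1.14 with vehicle, and rose by 0.67 ± 0.10 in 20 of 20 rats. Aqp1, a water channel of endothelium, had ratios of -0.46, 0.74 and 1.45 with retinoic acid, against -1.08, 0.03 and 0.83 with vehicle, and rose by 0.81 ± 0.13 in 17 of 20 rats. Gpihbp1, which holds lipoprotein lipase on capillaries, fell by 0.49 ± 0.09, and Tek, an angiopoietin receptor, fell by 0.24 ± 0.04 with its 2 probes at -0.46 and -0.01. Aqp1 and Gpihbp1 are not in the endothelial list. Of 12 endothelial markers 1 was higher, Emcn (0.26 ± 0.07; 0.17 without day 2, adjusted p = 0.122, and 0.25 without day 4, adjusted p = 0.151; 0.25 without day 6, adjusted p = 0.0672, and 0.23 without vehicle rat 1056, adjusted p = 0.0548), and 1 lower, Tek (median -0.04). The median level of the endothelial markers ran between -0.29 and 0.46 with retinoic acid and between -0.28 and 0.36 with vehicle. Its part in these results was not tested. Of 17 angiogenesis genes Edn1 was higher and Tek lower (median 0.01), and of 10 lactate and ion transport genes Aqp1 alone passed (median -0.05). Calls made up 16.7% of the endothelial, 11.8% of the angiogenesis and 10% of the transport list, beside 4.46% of all features.

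Among macrophage, mast cell, fibroblast and adipocyte markers the calls were lower. They made up 19.0% of the macrophage list and 18.2% of each of the others, in lists of 11 to 21 genes, beside 2.21% of all features that were lower. Against the mean of the other 4 compounds, 4 macrophage, 4 adipocyte, 1 mast cell and 1 fibroblast marker were lower, beside 3.09% of all features. The list medians were then -0.10, -0.17, -0.01 and -0.05. That difference also holds the effects of the other compounds, such as the higher Fabp4 with rosiglitazone. Of 21 macrophage and leukocyte markers 4 were lower and none higher (median -0.11), namely the mannose receptor Mrc1 (-0.47 ± 0.12) and the antigen presentation genes Cd74 (-0.45 ± 0.10), RT1-Da (-0.33 ± 0.07) and RT1-Ba (-0.31 ± 0.09). Without day 4 RT1-Da still passed, whereas Mrc1 gave -0.41 (adjusted p = 0.120), Cd74 -0.38 (adjusted p = 0.0948) and RT1-Ba -0.25 (adjusted p = 0.294). RT1-Ba also lost the call without day 3 (-0.33, adjusted p = 0.0633), without vehicle rat 1057 (-0.27, adjusted p = 0.0608) and without vehicle rat 1056 (-0.29, adjusted p = 0.0530), and Mrc1 gave -0.41 with vehicle rat 1022 put back (adjusted p = 0.132). Mast cell proteases Cma1 (-0.65 ± 0.15) and Tpsab1 (-0.39 ± 0.08) were the 2 calls of 11 mast cell markers (median -0.07), at -0.57 (adjusted p = 0.0860) and -0.32 (adjusted p = 0.0758) without day 4, and Cma1 at -0.49 without day 2 (adjusted p = 0.0646). Fibroblast markers had 2 lower of 11, Mfap5 (-0.49 ± 0.09) and Dpt (-0.27 ± 0.08; -0.24 without day 4, adjusted p = 0.281; no call without day 2, 3 or 5, at -0.25, -0.28 and -0.25, or without any 1 of 26 single rats, adjusted p up to 0.195), with a median of -0.14. Adipocyte markers had 2 lower of 11, Pparg (-0.33 ± 0.06) and Fabp4 (-0.34 ± 0.07), with a median of -0.07. No lymphocyte marker of 9, smooth muscle marker of 8 or red blood cell marker of 6 passed (medians -0.03, -0.05 and -0.14). The median level of the macrophage markers ran between -0.66 and 0.10 in retinoic acid rats and between -0.44 and 0.46 in vehicle rats. That of the fibroblast markers ran between -1.10 and 0.21 in retinoic acid rats and between -0.76 and 0.50 in vehicle rats. The median adipocyte level ran between -0.44 and 0.26 in retinoic acid rats and between -0.24 and 0.19 in vehicle rats. These ranges overlap, and what part such cells have in the other results was not tested.

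**Figure D3:**
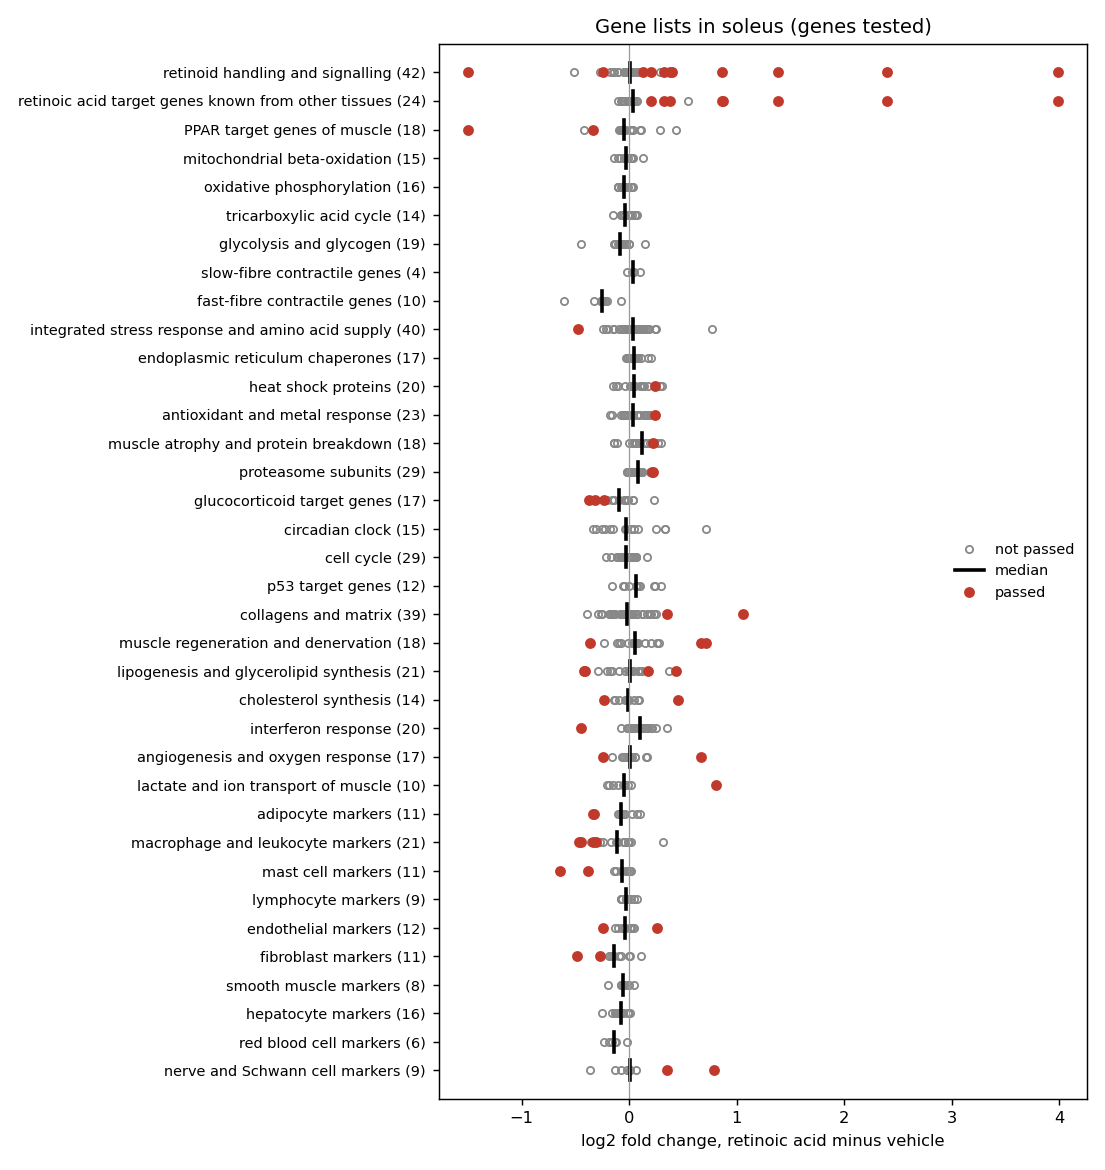
Log2 fold changes, retinoic acid minus vehicle (horizontal axis), of every tested gene of each list (rows, number tested in brackets). Filled red circles passed, open circles did not, and black bars mark list medians; the retinoid list spans -1.50 to 3.99 and the fast-fibre list lies below 0 with no gene passing.

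By day, retinoic acid changed 44 features on day 2 (0.24%), 167 on day 3 (0.909%), 252 on day 4 (1.37%), 15 on day 5 (0.0817%) and 13 on day 6 (0.0708%). Those higher numbered 36 (0.196%), 59 (0.321%), 161 (0.877%), 9 (0.049%) and 13, and those lower 8 (0.0436%), 108 (0.588%), 91 (0.495%), 6 (0.0327%) and 0. Days 5 and 6 had 3 and 4 vehicle rats, the fewest. With only the arrays of the day itself the counts were 5, 24, 433, 1 and 0, the last with 1076 features at an unadjusted p under 0.05. Cyp26b1 was higher by 4.13, 4.30, 4.44, 3.89 and 3.20 on days 2 to 6, Cyp26a1 by 2.11, 3.03, 3.43, 1.67 and 1.77, and Lrat by 1.18, 1.65, 1.64, 1.22 and 1.26. These effects were present at the first sampling and at the last. No slope of the effect along the days passed adjustment (0 of 18367, 0.0% by limma, with 1821 at an unadjusted p under 0.05). This does not show that the effects stayed constant. The slope of Cyp26b1 was -0.23 ± 0.06 per day (adjusted p = 0.498, the lowest of all features).

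Rats differed in how far the retinoid genes moved. Rat 1328 of day 6 had the lowest ratio of the 20 retinoic acid rats for Cyp26b1 (2.19), Rarb (0.14), Lrat (0.33) and Tgm2 (-0.01), and the second lowest for Cyp26a1 (0.985). Its Rbp7 ratio was -1.79, the lowest of the 4 rats of that day. Rat 1311 of day 2 was second lowest for Rarb (0.37), Lrat (0.47) and Tgm2 (0.18). The arrays of rats 1328 and 1311 had a spread of 0.97 and 0.77 times the soleus median. Why these rats differed was not tested.

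Against the other 4 compounds, the retinoid genes stood apart. The mean of those compounds was subtracted from the retinoic acid effect, which cancels the vehicle arrays, and 1041 of 18362 features (5.67%) passed, 474 higher (2.58%) and 567 lower (3.09%). Cyp26b1 was 3.83 ± 0.07 above that mean, Cyp26a1 2.40 ± 0.12 and Lrat 1.49 ± 0.08. The next were Cldn4, a tight junction protein (1.12 ± 0.30; 0.82, 1.04 and 0.75 without day 4, 5 or 6, adjusted p = 0.285, 0.0573 and 0.160), and Mmp9 (0.99 ± 0.14). Against vehicle Cldn4 gave 0.87 with retinoic acid and did not pass. With the 3 excluded vehicle arrays put back 514 features passed against the other compounds, and without day 4 546. Of the 820 features called against vehicle, 480 (58.5%) also passed against the other compounds, all with the same sign. Both comparisons use the same retinoic acid arrays, so this agreement is not independent support. Of 42 retinoid genes 10 were higher and 6 lower.

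**Figure D4:**
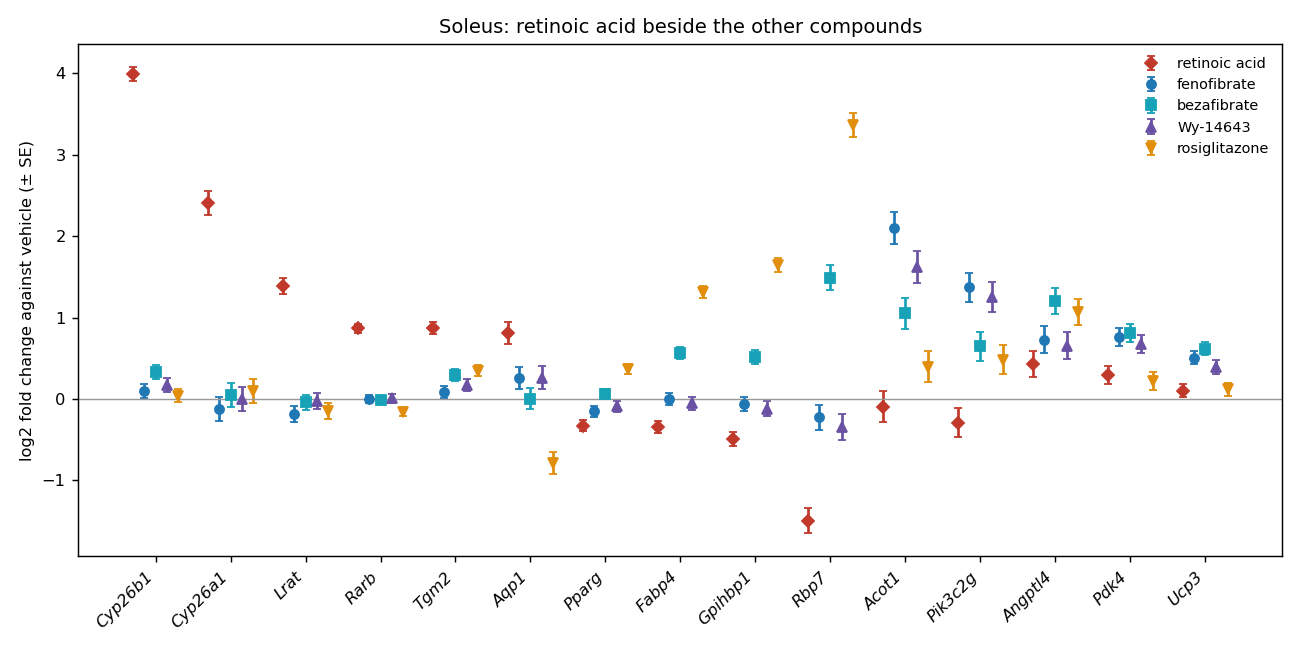
Log2 fold changes against vehicle ± SE (vertical axis) in soleus for 15 genes (horizontal axis) with retinoic acid (red diamonds) and the other 4 compounds. The first 5 genes are highest with retinoic acid, at 0.87 to 3.99, and Rbp7 is at -1.50 with retinoic acid and 3.36 with rosiglitazone. All compounds share the vehicle arrays.

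The largest negative differences included Rbp7, Acot1 and Fabp4, which are listed as targets of PPARs, the receptors of fibrates and glitazones. For Rbp7 the difference from the mean of the others was -2.57 ± 0.13 (adjusted p = 2.48e-33). Against vehicle Rbp7 gave -1.50 with retinoic acid, -0.23 with fenofibrate, 1.49 with bezafibrate, -0.35 with Wy-14643 and 3.36 with rosiglitazone. Acot1, an acyl-CoA thioesterase, differed by -1.39 ± 0.16, with effects of -0.09 with retinoic acid, 2.10 with fenofibrate, 1.05 with bezafibrate, 1.62 with Wy-14643 and 0.39 with rosiglitazone. Pik3c2g, a lipid kinase, differed by -1.23 ± 0.15, with effects of -0.29 with retinoic acid, 1.37 with fenofibrate, 0.64 with bezafibrate, 1.25 with Wy-14643 and 0.48 with rosiglitazone. Acot1 and Pik3c2g did not pass against vehicle with retinoic acid. Gpihbp1 (-0.98 ± 0.07) and Fabp4, a fatty acid carrier of fat and endothelium (-0.80 ± 0.06), differed in the same direction and were highest with rosiglitazone, at 1.64 and 1.32. Of 18 PPAR targets 16 were lower with retinoic acid than the mean of the others and none higher (median -0.34). Of 15 beta-oxidation genes 12 were lower (median -0.20), beside 3.09% of all features. The others include fibrates and a glitazone, so their own effects on these genes enter the difference. The medians against vehicle were -0.04 and -0.03, with no beta-oxidation call. Against vehicle, 2 of the 18 were lower with retinoic acid, Rbp7 and Fabp4, and Pdk4 (0.29 ± 0.11), Angptl4 (0.43 ± 0.16) and Ucp3 (0.10 ± 0.08) did not pass. Aqp1 went the other way, at 0.81 with retinoic acid and -0.78 with rosiglitazone, and was 0.87 ± 0.11 above the mean of the others.

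The effect was also set against that in quad, the other muscle as the labels name it, with 17 retinoic acid and 61 vehicle arrays. The soleus effect differed in 26 of 18365 features (0.142%), 19 higher (0.103%) and 7 lower (0.0381%). With the rat as a block, since 104 rats gave both muscles, 78 differed. Those rats span all compounds, with 17 retinoic acid and 24 vehicle rats among them. Without day 4 the count was 0 (948 at an unadjusted p under 0.05, limma), and 13 differed with all doubted arrays put back. For the 9 named genes whose effect differed, the values without day 4 are given below. Of 18 quad retinoic acid and 63 quad vehicle arrays, retinoic acid rat 1321 and vehicle rat 1042 were left out for liver transcripts (hepatocyte medians of 2.10 and 1.34) and vehicle rat 1068 for a spread 3.09 times the quad median. 1 array each of fenofibrate and bezafibrate was also left out.

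Lrat rose less in soleus (1.39 ± 0.10) than in quad (2.13 ± 0.09), with a difference of -0.74 ± 0.13 (adjusted p = 0.000524; -0.68 without day 4, adjusted p = 0.0986). Rarb rose more in soleus (0.87 ± 0.05) than in quad (0.56 ± 0.05), with a difference of 0.31 ± 0.07 (adjusted p = 0.0213; 0.29 without day 4, adjusted p = 0.317; 0.21 without day 3, adjusted p = 0.385). Ngfr also rose more, with a difference of 0.46 ± 0.08 (0.39 without day 4, adjusted p = 0.219). Runx1 and Junb, an AP-1 transcription factor, rose in soleus (0.67 and 0.60) and gave -0.05 and 0.11 in quad, with differences of 0.72 ± 0.16 and 0.49 ± 0.11 (0.57 and 0.37 without day 4, adjusted p = 0.758 and 0.764; 0.68 and 0.50 without day 6, adjusted p = 0.286 and 0.121). Without day 5 Junb gave 0.47 (adjusted p = 0.0506). Tafa5, a secreted protein, gave 0.05 in soleus and -0.27 in quad, a difference of 0.32 ± 0.07 (0.33 without day 4, adjusted p = 0.179), and it lost the call without day 2, 3 or 6 too (0.29, 0.29 and 0.34). On the negative side were Tspan8, a tetraspanin (-0.60 ± 0.13), Ddit4l, an inhibitor of mTOR signalling (-0.60 ± 0.14), and Aldh1a2 (-0.21 ± 0.05), at -0.72, -0.48 and -0.17 without day 4 with adjusted p of 0.0685, 0.764 and 0.758. These 3 also lost the call without day 3 (-0.56, -0.62 and -0.20) or day 6 (-0.47, -0.59 and -0.22), and Ddit4l without day 5 (-0.57). Cyp26b1 rose by 3.99 in soleus and 4.00 in quad, a difference of -0.01 ± 0.16. Cyp26a1 rose by 2.40 in soleus and 1.70 in quad, a difference of 0.70 ± 0.18 that did not pass without the block (adjusted p = 0.0763) and passed with it (0.71, adjusted p = 0.0175). Rbp7 gave -1.50 in soleus and -1.67 in quad, with a difference of 0.18 ± 0.23 (adjusted p = 0.890).

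**Figure D5:**
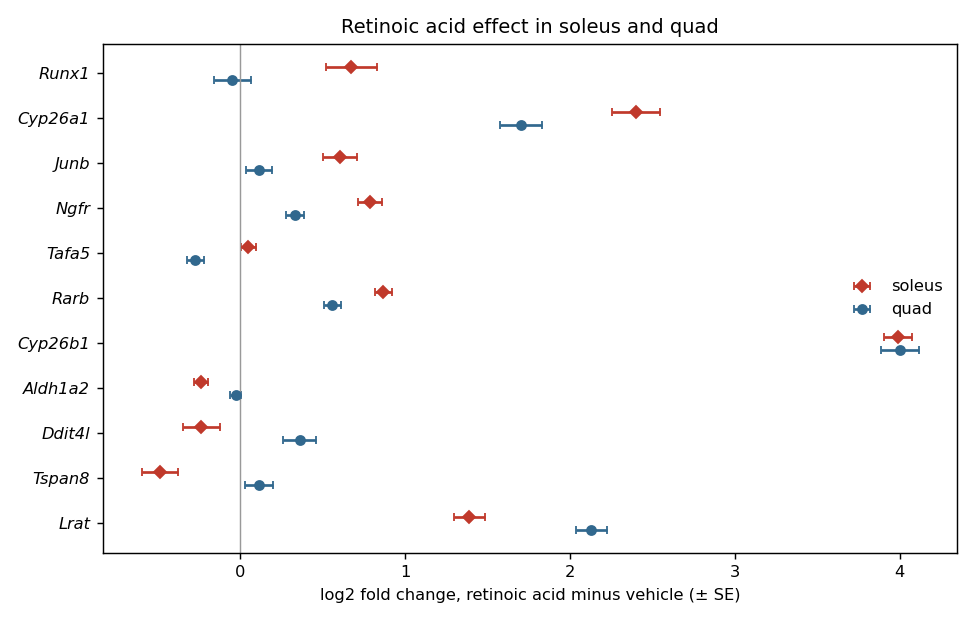
Log2 fold changes, retinoic acid minus vehicle ± SE (horizontal axis), in soleus (red diamonds, above) and quad (blue circles, below) for the 9 named genes whose effect differed between the muscles and for Cyp26b1 and Cyp26a1. Lrat lies at 1.39 in soleus and 2.13 in quad, and Cyp26b1 at 3.99 and 4.00.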

How the data were processed

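RNA of rat muscle was extracted with TRIzol and RNeasy and made into dye-labelled cRNA by reverse transcription and in vitro transcription, per the labels' protocols. The deposited table holds log10 ratios of 23653 probes on 484 arrays; how the authors normalised them is not given in the sources used here. Base and direction were inferred from the limits of -2 and 2, the values centring on 0 and the dyes per the labels. Values were multiplied by 3.32 to give log2. 0.907% were missing and 699 lay at the limit. Precision is set by how many arrays each group has.

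15260 probes named 1 gene, 17 several and 8376 none; 15204 matched the RefSeq table by gene identifier. Probes of a gene were averaged, giving 18603 features, and those with values on 80% of arrays were tested. All 14 passing named genes with more than 1 probe had all probes of 1 sign. limma 3.58.1 (R 4.3.3, statmod 1.5.0) fitted 1 mean per compound and day over all soleus arrays but the 3 doubted ones, and over both muscles for the comparison with quad. Tests were two-sided, with Benjamini-Hochberg adjustment. Rat numbers in the titles pair the muscles (correlation within a rat 0.156). The procedure was tested on simulated data. Named genes are the 10 largest rises and falls among passing named genes with 1 sign on 5 days (symbols that only number a locus were skipped), from each list up to 4 that passed, taken by adjusted p, a fixed set, and the 5 largest each way of the further comparisons; other list members were named to show values. Members and lists were chosen with earlier results of these data known. Of 834 list entries 703 were on the array. Figures used Python 3.11.15 and matplotlib 3.10.9. Alternatives changed centring, scaling, weights, missing values, probes, days, arrays and the reference.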

Additional observations from a re-analysis of the deposited data

Results flagged for a closer look

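In 54 day groups of 4 to 10 rats, over 6 genes, 6 values, from 5 rats, stood apart from the others of their group (Dixon's test at the 95% level); chance gives about 1 in 20 groups. Among retinoic acid rats, rat 1321 on day 5 had a Cyp26b1 ratio of 3.38, against 3.90 to 3.92 in the other 3, and a Rarb ratio of 1.01, against 0.63 to 0.67. Rat 1316 on day 3 had a Lrat ratio of 1.78, against 1.66 to 1.67. Rat 1328 on day 6 had a Tgm2 ratio of -0.0113, against 0.90 to 0.93. Among vehicle rats, rat 1038 on day 4 had a Lrat ratio of 0.56, against -0.37 to 0.10, and rat 1019 on day 3 had a Rbp7 ratio of 1.90, against -0.99 to 0.36.

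The effect of retinoic acid differed between soleus and quad for 9 named genes in the main fit. All 9 lost the call without day 4, and 5 kept it with all arrays kept. Rarb, Tafa5, Aldh1a2 and Tspan8 lost it with all arrays kept. Ddit4l lost it with arrays scaled to 1 spread and with array quality weights. The difference, soleus minus quad, was 0.72 for Runx1, 0.49 for Junb, 0.46 for Ngfr, 0.32 for Tafa5 and 0.31 for Rarb, and -0.74 for Lrat, -0.60 for Tspan8, -0.60 for Ddit4l and -0.21 for Aldh1a2.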

How the results depend on the processing

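Of the 63 named genes that passed against vehicle, 30 passed in each of the 69 alternatives that gave them a value, among them Cyp26b1, Cyp26a1, Lrat, Rarb, Rarg, Tgm2, Mmp9, Ngfr, Ncam1, Aqp1, Edn1, Rbp7 and Pparg, and no named call changed sign. Against vehicle the count of 820 became 1239, 507 and 321 without day 2, 3 or 4, 524 with all arrays kept, 434 with vehicle rat 1022 put back (780 with 1034, 1122 with 1061, each added after the data were seen) and 2813 when retinoic acid ratios were tested against 0. Leaving out 1 rat gave 568 (without vehicle rat 1056) to 1214 (without vehicle rat 1064). Without day 4, 27 of the 63 named genes lost the call. By day, all arrays kept gave 16 on day 2, 112 on day 4 and 3 on day 6, and the arrays of the day alone gave 5, 24, 433, 1 and 0 on days 2 to 6. Against the other compounds 1041 became 514 with all arrays kept, 1768 with array quality weights and 546 without day 4. The slope per day gave 0 in each alternative run for it. For soleus minus quad, 26 became 13 with all arrays kept, 42 with array weights, 78 with the rat as a replicate block, and 53, 0, 42 and 10 without day 2, 4, 5 or 6; the cause was not tested. The block kept all 9 named calls, all arrays kept left 5 of them, and none was kept without day 4. Days 5 and 6, with 3 and 4 vehicle rats, have the widest errors.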
